A study of Homo sapiens with 5 samples.

Results

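The major histocompatibility complex (MHC) was taken as chr6:29600000-33200000 on the human build hg19, and every called peak with its midpoint there was kept. By position it was divided into class I (29600000 to 31500000), class III (31500000 to 32200000) and class II (32200000 to 33200000), of 1.9, 0.7 and 1.0 Mb. It held 2332 of the 1150695 peaks in the 6 deposited lists. Called against input these were 76 antibody 1, 778 antibody 2 and 320 RNA polymerase II peaks, and called against IgG 62, 801 and 295.

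The lists come from chromatin immunoprecipitation and sequencing (ChIP-seq) of U2932, an established human lymphoma cell line, untreated. The groups were 1 library with antibody 1 and 1 with antibody 2, both rabbit polyclonal, non-commercial antibodies against PRDM11, 1 with an RNA polymerase II antibody, 1 with rabbit IgG and 1 of input chromatin. Each library was called against each control. No group has a replicate and no library comes from cells without PRDM11, so there is no test between groups. Ranges in parentheses are exact 95% intervals, binomial for shares and Poisson for densities. They cover counting error only, with each peak taken as an independent count. The lists give positions alone, so read depth and peak height are unknown, and no RNA was measured that could check the cell type against its markers. Where no control is named, a value is from the calls against IgG.

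The MHC carries the genes that present peptides to T cells. Class I molecules such as HLA-B and HLA-C show peptides made inside a cell to cytotoxic T cells. The class II molecules HLA-DR, HLA-DQ and HLA-DP show peptides of ingested proteins to helper T cells and are typical of B cells, the lineage from which U2932 derives. Class II also holds the peptide transporters TAP1 and TAP2 and the proteasome subunits PSMB8 and PSMB9, which prepare class I peptides, and BRD2, a bromodomain protein that binds acetylated histones. Class III between them holds no antigen-presenting genes but complement genes (C2, CFB, C4A, C4B), the cytokines TNF, LTA and LTB, and heat shock genes. PRDM11 is a member of the PR domain family, many of which are nuclear regulators of transcription. In RefSeq's annotation of GRCh38.p14 the 43 MHC genes listed for orientation run from HLA-F through HLA-C and HLA-B to LTA and TNF, on to C4A and C4B, and then from HLA-DRA to TAP2, TAP1, BRD2 and HLA-DPB1. That build differs from the peaks' build, so no peak below is assigned to a gene, and peaks are named by position.

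All 3 ChIP libraries were denser in the MHC than over their whole lists, though for antibody 1 against input the interval of the MHC density (16.6 to 26.4 per Mb) included the whole-list value of 18.0. Antibody 1 had 17.2 peaks per Mb (13.2 to 22.1) in the MHC, against 3.81 per Mb on the rest of chromosome 6 and 4.50 per Mb over the whole list, which makes the MHC 3.83 times as dense as the list. Against input it was 1.17 times as dense as the list, with class I at 1.32, class III at 1.51 and class II at 0.667 times, so that class II turned to below the list (1.78 times against IgG). RNA polymerase II had 81.9 peaks per Mb (72.9 to 91.8) in the MHC, against 12.4 on the rest of the chromosome and 16.7 over its whole list, 4.90 times as many (3.32 times against input). Antibody 2 had 222.5 per Mb (207.4 to 238.5) in the MHC, against 134.8 and 155.2, 1.43 times its whole list (1.33 times against input). The lengths run from the first to the last peak of each chromosome in any list and include assembly gaps, which lowers the densities outside the MHC. Among 847 other windows of 3.6 Mb tiled over the chromosomes, 10 held more antibody 1 peaks, 10 held more RNA polymerase II peaks and 99 held more antibody 2 peaks. The median window held 12, 29 and 566 peaks of these libraries. Against input 86 windows held more antibody 1 peaks, 31 more RNA polymerase II peaks and 131 more antibody 2 peaks. The median window then held 26 antibody 1 peaks and the fullest 4435, all of which enter the whole-list value.

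Class III was the densest class for each library, against IgG and against input. RNA polymerase II had 60.0 peaks per Mb (49.5 to 72.1) in class I, 154.3 (126.6 to 186.3) in class III and 73.0 (57.2 to 91.8) in class II. Class III was thus 2.57 times as dense as class I and 2.11 times as dense as class II, with intervals that did not overlap. Those of classes I and II did overlap, and against input their order turned, with 71.1 per Mb in class I, 170 in class III and 66.0 in class II. Antibody 1 had 18.9 peaks per Mb (13.3 to 26.2) in class I, 25.7 (15.2 to 40.6) in class III and 8.0 (3.45 to 15.8) in class II, from 36, 18 and 8 peaks. The intervals of classes III and I overlapped, and those of class II overlapped both. Antibody 2 was the most even, with 217.4 per Mb (196.9 to 239.4) in class I, 255.7 (219.6 to 296.0) in class III and 209.0 (181.6 to 239.3) in class II, and its intervals overlapped throughout. Against input both antibodies kept the order of class III, class I and class II.

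**Figure D1:**
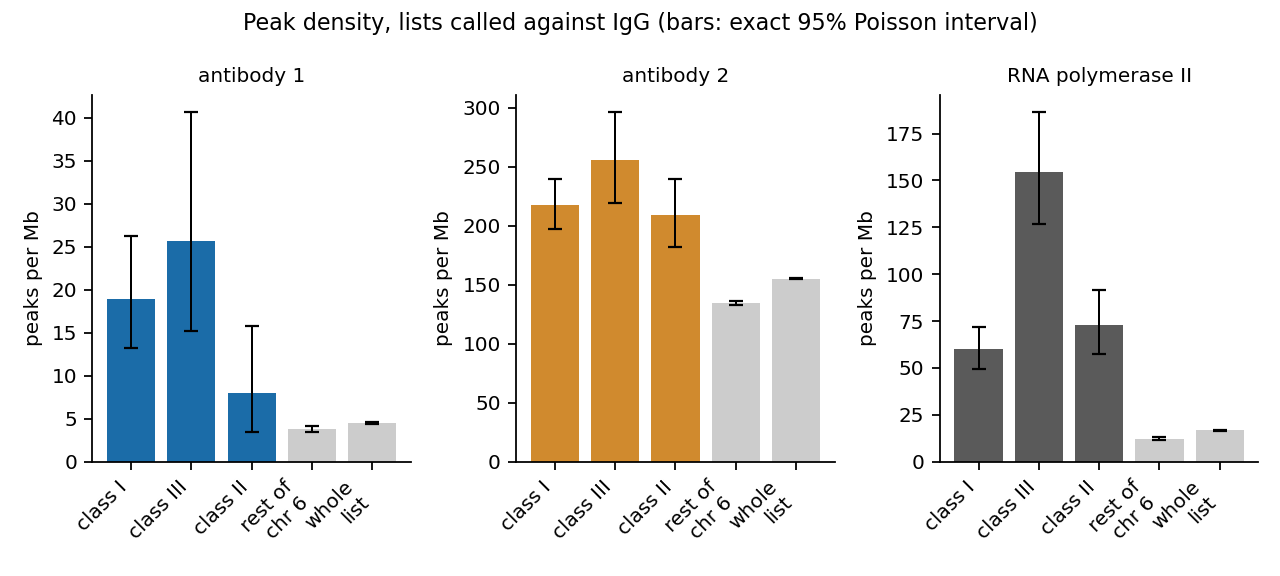
Peaks per Mb of antibody 1, antibody 2 and RNA polymerase II (lists called against IgG) in class I, class III and class II (coloured bars), on the rest of chromosome 6 and over the whole list (grey bars), with exact 95% Poisson intervals. RNA polymerase II reached 154.3 per Mb in class III, and antibody 1 had 8.0 per Mb in class II.

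The number of antibody 1 peaks was also set against that of the polymerase. For every 100 RNA polymerase II peaks there were 31.6 antibody 1 peaks (21.1 to 46.3) in class I, 16.7 (9.52 to 27.6) in class III and 11.0 (4.56 to 22.8) in class II, against 26.9 over the whole lists. The class II interval lay below the whole-list value, those of classes I and III included it, and those of classes II and III overlapped. Against input the same ratios were 33.3 in class I, 16.0 in class III and 18.2 (8.94 to 33.9) in class II, against 67.2 over the whole lists. The order of classes II and III was thus turned, and all 3 classes lay below the whole lists. On the rest of chromosome 6 the ratio was 30.7 against IgG and 43.7 against input. Each lay within the class I interval (23.2 to 47.0 against input) and above those of classes II and III. For antibody 2 the ratio was 362.3 (293.8 to 449.8) in class I, 165.7 (129.8 to 212.4) in class III and 286.3 (218.3 to 379.1) in class II, against 928.7 over the whole lists. The intervals of classes I and II overlapped. Against input the ratios were 298.5, 142.9 and 310.6, against 605.7, so classes I and II changed order.

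Within the classes, peaks were unevenly spread. The 5 densest of 36 bins of 100 kb held 127 of the 295 RNA polymerase II peaks (43.1%) and 26 of the 62 antibody 1 peaks (41.9%), but 170 of the 801 antibody 2 peaks (21.2%). In class I the polymerase concentrated in the 2 bins from 30500001 to 30700000, with 24 and 22 peaks, and antibody 1 was densest there and in the next bin, with 4, 7 and 5 peaks. In class III the 4 bins from 31500001 to 31900000 held 30, 18, 18 and 20 polymerase peaks and 3, 2, 3 and 4 antibody 1 peaks. The densest polymerase bin of all, with 31 peaks, ran from 32900001 to 33000000 in class II and held 1 antibody 1 peak. The bin before it held 13 polymerase and 5 antibody 1 peaks. Antibody 1 had no peak in 13 of the 36 bins and RNA polymerase II none in 2, whereas every bin held at least 11 antibody 2 peaks. By construction a list of fewer peaks leaves more bins empty and has a larger share in its densest bins. The part of list size in these differences between libraries was not tested.

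**Figure D2:**
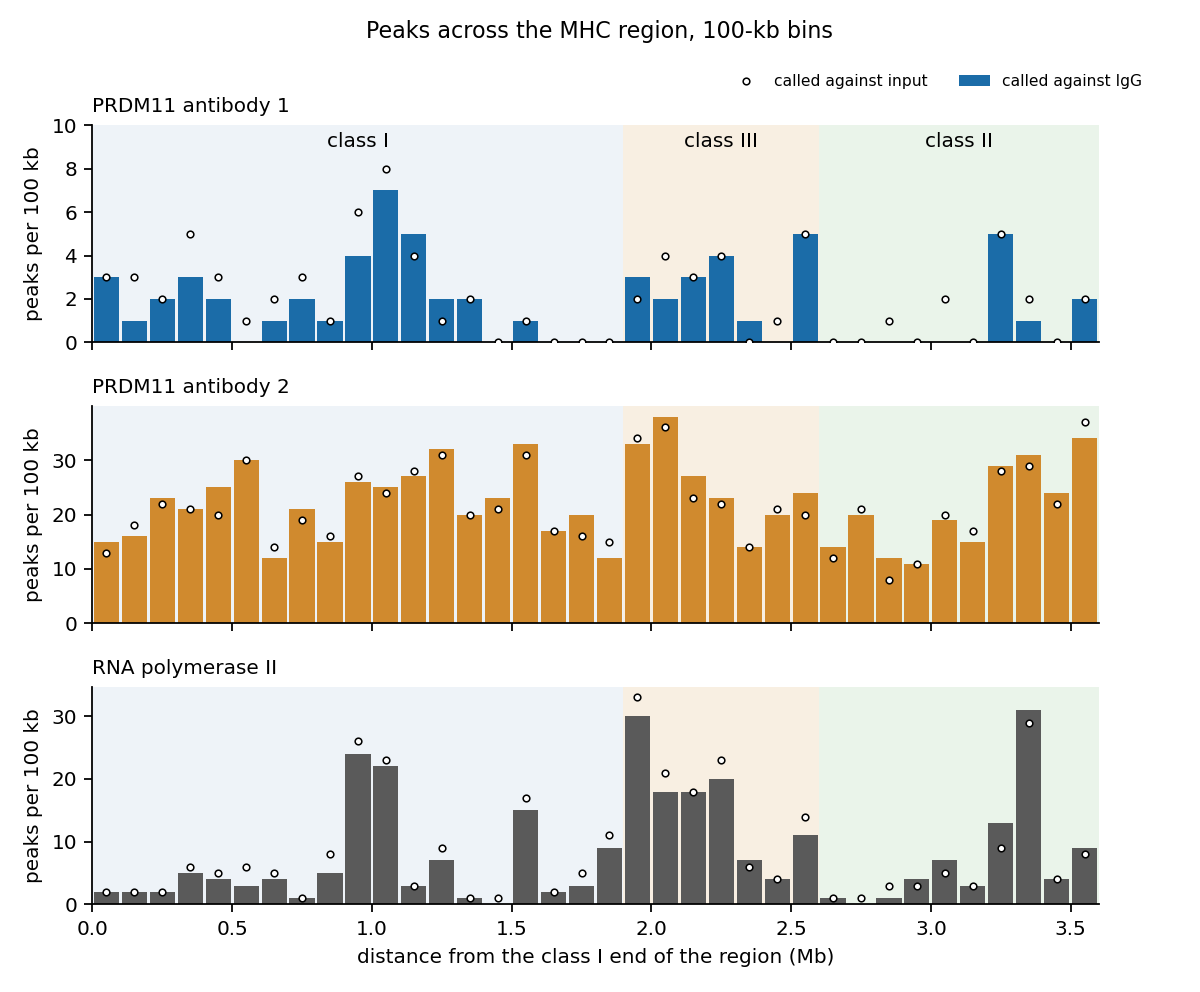
Peaks per 100-kb bin (vertical axis) along the MHC, as distance in Mb from its class I end, for antibody 1, antibody 2 and RNA polymerase II. Bars are lists called against IgG, circles lists called against input, and shading marks the classes. Antibody 1 bars are missing from the first 0.6 Mb of class II, where antibody 2 bins hold 11 to 20 peaks.

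Most of class II held no antibody 1 peak. The stretch from 32189570, in the last kilobases of class III, to 32802958 (613.4 kb) had none called against IgG. It held 92 antibody 2 peaks (150.0 per Mb) and 17 RNA polymerase II peaks (27.7 per Mb, 16.1 to 44.4). The polymerase interval includes the 16.7 per Mb of its whole list. Against input it held 3 antibody 1 peaks, each at the minimum width of 123 bp. The other 397.0 kb of class II, up to its end, held 8 antibody 1 peaks (20.1 per Mb), 118 antibody 2 peaks (297.2 per Mb) and 56 RNA polymerase II peaks (141.0 per Mb). Antibody 2 and RNA polymerase II were thus denser there than in the stretch, which was itself chosen for its lack of antibody 1 peaks. Stretches at least as long without antibody 1 peaks numbered 1113 in its whole list and took up 55.6% of the genome. From 31126168 in class I to 31511063 in class III, 384.9 kb had no antibody 1 peak against IgG, but 35 RNA polymerase II and 78 antibody 2 peaks. No antibody 1 peak called against input had its midpoint there. Stretches at least as long numbered 1840 in the whole antibody 1 list and took up 67.5% of the genome.

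Some stretches were empty in all 6 lists. The longest lay in class II at 32452054 to 32497917 (45.9 kb), another in class III at 31964399 to 32006189 (41.8 kb) and another in class II at 32513230 to 32544688 (31.5 kb). Without a measure of mappability or control reads here, whether reads could be placed in them was not tested.

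Called against IgG, antibody 1 and antibody 2 peaks of the MHC had a median width and a share at the minimum width close to those of their whole lists. RNA polymerase II peaks had a higher median. The median width was 181.5 bp for antibody 1 in the MHC, against 184 bp over the whole list, and 13 of the 62 (21.0%, 11.7% to 33.2%) had the minimum width of 123 bp, against 20.4%. For antibody 2, 610 of 801 (76.2%, 73.0% to 79.1%) had that minimum, against 78.4%. Its wide peaks were few but a larger share than elsewhere. In the MHC 5 of 801 (0.624%) were 500 bp or wider, against 0.148% of the whole list and 0.151% on the rest of chromosome 6. Against input 6 of 778 (0.771%) were, against 0.203% of the whole list. RNA polymerase II peaks had a median of 279 bp, against 246 bp, and 25.4% were 500 bp or wider, against 18.9%. Against input the median was 267.5 bp, against 239 bp, and the wide share was nearer the list, at 21.6% against 19.3%. By class the polymerase medians were 295 bp in class I, 258.5 bp in class III and 276 bp in class II. Against input they were 266, 259 and 298 bp, so classes I and II changed order.

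The 2 antibodies were raised against 1 protein, so their shared peaks are of interest. In the MHC 30 of the 62 antibody 1 peaks (48.4%, 35.5% to 61.4%) shared at least 1 bp with an antibody 2 peak, close to the 47.2% of the whole list. The count was 17 of 36 in class I, 9 of 18 in class III and 4 of 8 in class II. Antibody 2 peaks covered 3.22% of the MHC's bases, against 2.16% over the whole list. In the other direction 35 of 801 antibody 2 peaks (4.37%, 3.06% to 6.02%) met an antibody 1 peak, against 1.59% of the whole list, in a region where antibody 1 covers 0.477% of bases, against 0.118%. Against input the share was 40 of 778 (5.14%, 3.70% to 6.94%), against 5.05% of the whole list. The difference from the whole list was thus seen with IgG alone. The rest of chromosome 6 lay below the MHC interval with both controls, at 1.63% against IgG and 2.12% against input.

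Antibody 1 peaks met RNA polymerase II peaks in 40 of 62 cases (64.5%, 51.3% to 76.3%), an interval that includes the 55.2% of the whole list. Against input the share was 49 of 76 (64.5%, 52.7% to 75.1%), and the interval lay above the 44.9% of the whole list. The share was 19 of 36 (52.8%, 35.5% to 69.6%) in class I, 14 of 18 (77.8%, 52.4% to 93.6%) in class III and 7 of 8 (87.5%, 47.3% to 99.7%) in class II. These intervals overlap, and the polymerase covered 2.54%, 5.56% and 2.99% of bases in the 3 classes. Among antibody 2 peaks 102 of 801 (12.7%, 10.5% to 15.2%) met the polymerase, against 3.20% of the whole list, and against input 108 of 778 (13.9%, 11.5% to 16.5%) did, against 6.29%. The polymerase covered 3.25% of the MHC's bases, against 0.597% over its whole list, and its part in the higher share was not tested. From the polymerase side the comparison with the whole list depended on the control for antibody 1 but not for antibody 2. Of the 295 polymerase peaks, 43 (14.6%, 10.8% to 19.1%) held an antibody 1 peak, against 14.3%, and 83 (28.1%, 23.1% to 33.6%) held an antibody 2 peak, against 25.6%, so both intervals include the whole-list share. Against input 43 of 320 (13.4%, 9.90% to 17.7%) held an antibody 1 peak, below the 29.4% of the whole list. For antibody 1 the rest of chromosome 6 gave 16.9% against IgG, within the MHC interval, and 18.5% against input, above it. Against input 86 of 320 (26.9%, 22.1% to 32.1%) held an antibody 2 peak, and the interval includes the 29.6% of the whole list.

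**Figure D3:**
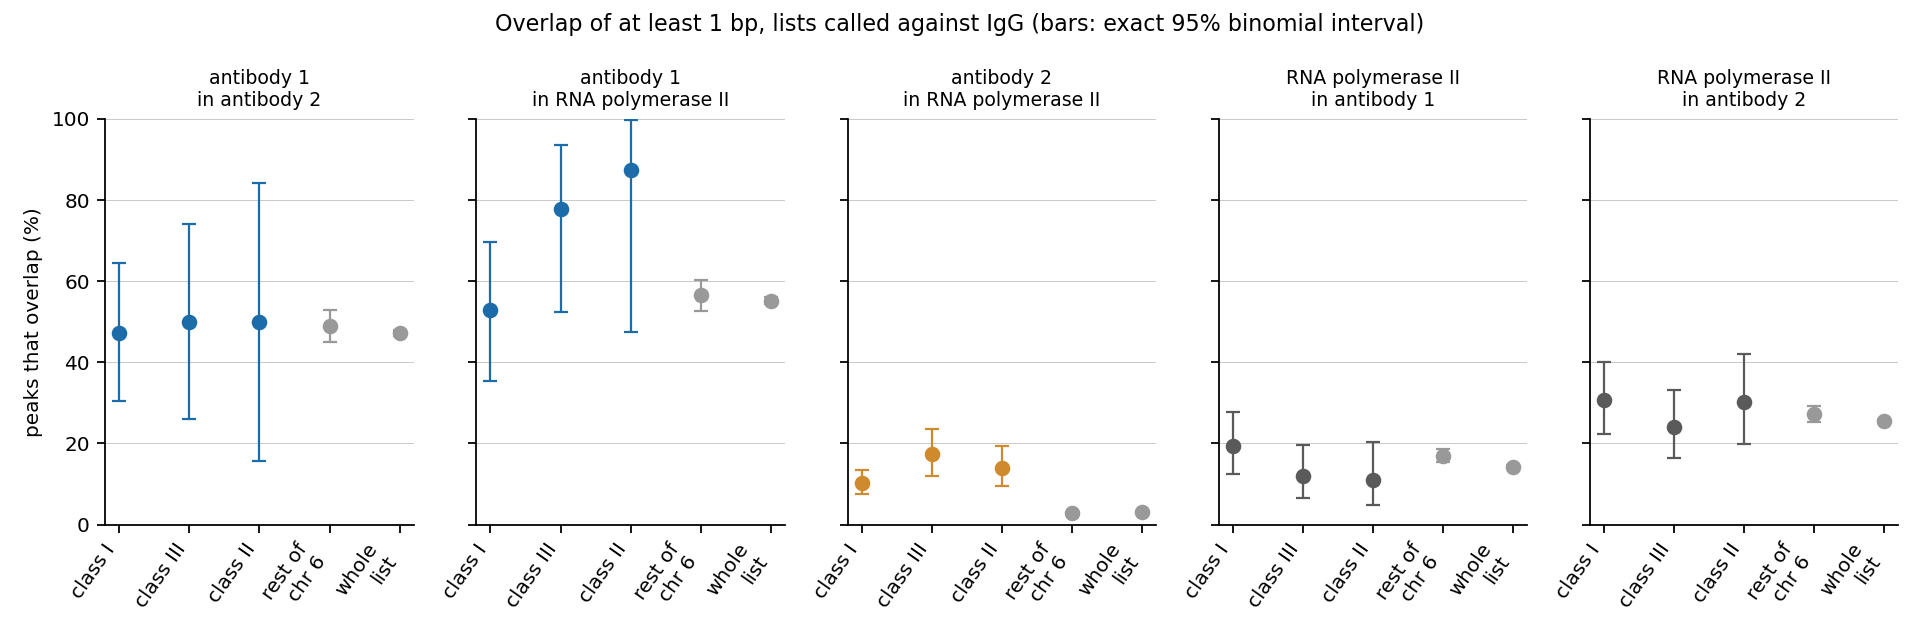
Percent of peaks that share at least 1 bp with another library's list (all called against IgG) in class I, class III and class II (coloured points), on the rest of chromosome 6 and over the whole list (grey points), with exact 95% binomial intervals. Antibody 1 in antibody 2 stays at 47.2% to 50% in the classes, and antibody 2 in RNA polymerase II reaches 17.3% in class III, against 3.20% over the whole list.

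The 62 antibody 1 peaks fell into 4 classes of overlap. Those that met antibody 2 as well as the polymerase were 23 (37.1%, against 32.6% of the whole list) and had a median width of 348 bp. Another 7 (11.3%, against 14.6%; median 218 bp) met antibody 2 alone, 17 (27.4%, against 22.5%; median 151 bp) the polymerase alone, and 15 (24.2%, against 30.2%; median 138 bp) neither. Against input 28 of 76 met both (36.8%, 26.1% to 48.7%), above the 24.0% of the whole list, and 20 met neither (26.3%, 16.9% to 37.7%), below its 44.3%. All 7 with antibody 2 alone against IgG lay in class I, while class III had 0 of 18 (0% to 18.5%) and class II 0 of 8 (0% to 36.9%). The 22 antibody 1 peaks without polymerase lay a median of 7026 bp from the nearest polymerase peak, 6 of them within 1000 bp and 10 beyond 10000 bp, the farthest at 37663 bp. These distances were not measured over the whole list, so whether they are short or long for antibody 1 was not tested.

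Width went with overlap, in the MHC as in the whole list. An overlap needed 1 bp, which a wider peak reaches more readily by construction, and the part of this was not tested. All 8 antibody 1 peaks of 500 bp or wider met both antibody 2 (96.7% in the whole list) and RNA polymerase II (85.6%). Of the 13 at 123 bp, 0 met antibody 2 (16.1% in the whole list) and 6 met the polymerase (21.3%). All 23 peaks that met both other libraries were found again against input (95.9% in the whole list), as were 7 of the 15 that met neither (59.7%).

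**Figure D4:**
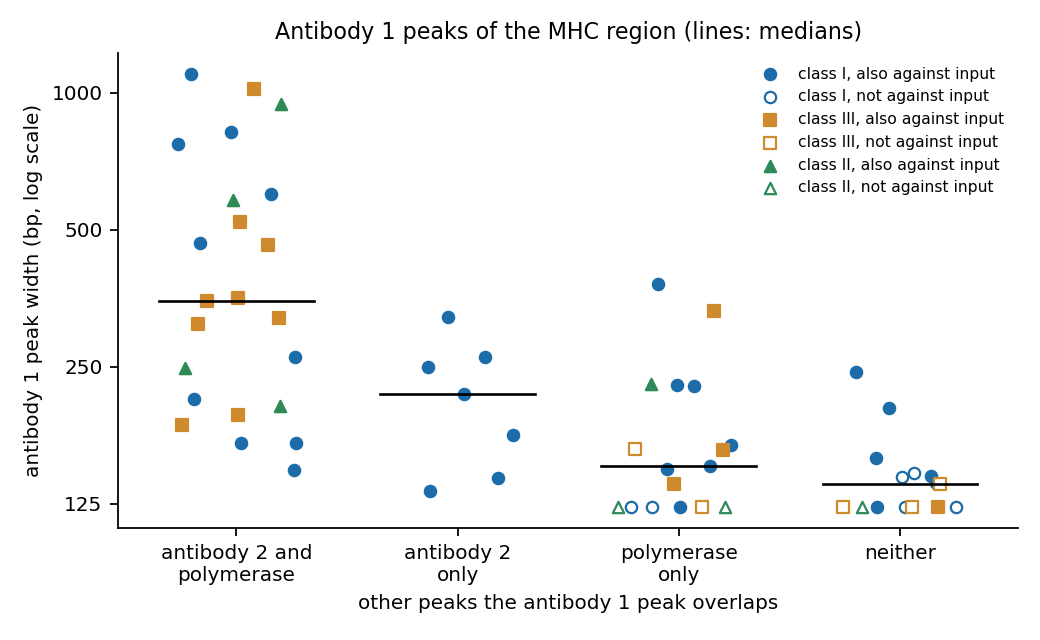
Width in bp (log axis) of each of the 62 antibody 1 peaks of the MHC, grouped by which other peaks it overlaps. Symbols give the class, filled where the peak was also called against input, and lines are medians, at 348, 218, 151 and 138 bp from left to right.

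The widest antibody 1 peaks of each class were as follows. In class I they formed a pair at 30523262 to 30524082 (821 bp) and 30524628 to 30525725 (1098 bp). The first shared 760 bp with the widest antibody 2 peak of the MHC, at 30523323 to 30524099 (777 bp), and met 3 polymerase peaks. The second shared 335 bp with antibody 2 and 737 bp with a polymerase peak at 30524718 to 30525454. The third, at 30028317 to 30029086 (770 bp), met 2 antibody 2 peaks, the wider one at 30028567 to 30029116, and 2 polymerase peaks. Each of these 3 was also called against input.

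In class III the widest antibody 1 peak, at 31670313 to 31671331 (1019 bp), shared 586 bp with the widest antibody 2 peak of that class, at 31670746 to 31671422 (677 bp), and 421 bp with the polymerase. Those at 31548741 to 31549259 (519 bp) and 31869948 to 31870410 (463 bp) lay wholly within polymerase peaks. The antibody 2 peak that came next in width, at 31773734 to 31774161 (428 bp), met neither antibody 1 nor the polymerase. Its neighbour at 31774541 to 31774903 (363 bp) met both.

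In class II the widest antibody 1 peak was at 32821519 to 32822464 (946 bp) and met 3 antibody 2 and 2 polymerase peaks. The next, at 32935903 to 32936483 (581 bp), lay wholly within the polymerase peak at 32935781 to 32936589. The third, at 32811654 to 32811901 (248 bp), lay wholly within the widest antibody 2 peak of class II, at 32811528 to 32812094 (567 bp). Other wide antibody 2 peaks of class II, at 32222925 to 32223365 (441 bp) and 32719851 to 32720260 (410 bp), met no antibody 1 peak and lay inside the 613.4 kb without any.

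Antibody 1 peaks that met antibody 2 and a polymerase peak of 500 bp or wider numbered 16, with 7 in class I, 7 in class III and 2 in class II, and each was found again against input. They were 25.8% of the 62 (15.5% to 38.5%), an interval that includes the 17.5% of the whole list. Against input 22 of 76 did so (28.9%, 19.1% to 40.5%), above the 13.3% of the whole list. Besides the peaks above, class I had those at 30294379 to 30294548, 30585249 to 30585715, 30688612 to 30688781, 30689303 to 30689450 and 30923170 to 30923767. The last shared 547 bp with an antibody 2 peak at 30923150 to 30923716 (567 bp). Class III had those at 31620345 to 31620530, 31774529 to 31774876, 31802134 to 31802453, 31802665 to 31802860 and 32163783 to 32164092. The pair starting at 31802134 and 31802665 lay inside a single polymerase peak of 851 bp, at 31802125 to 31802975.

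The widest RNA polymerase II peaks mostly held no antibody 1 peak. The widest, at 30580405 to 30584248 in class I (3844 bp), had none and 1 antibody 2 peak of 123 bp. Those at 30568212 to 30570246 (2035 bp) and 30578877 to 30580283 (1407 bp) in class I, and at 31544517 to 31545737 (1221 bp) and 31939487 to 31940606 (1120 bp) in class III, held neither. The peak at 31632671 to 31633736 (1066 bp) held 1 antibody 2 peak. In class II the peak at 32939059 to 32941186 (2128 bp) held 2 antibody 2 peaks, that at 32950893 to 32952249 (1357 bp) held 1, and that at 32949330 to 32950666 (1337 bp) none, all without antibody 1. In all, 2 of the 14 polymerase peaks of 1000 bp or wider held antibody 1 (14.3%, 1.78% to 42.8%), against 53 of 110 on the rest of chromosome 6 (48.2%) and 38.6% in the whole list. The interval includes the whole-list value but not that of the rest of the chromosome. Against input the count was 9 of 26 (34.6%, 17.2% to 55.7%), against 60.2% on the rest of the chromosome and 65.5% in the whole list. Of these 9, 4 were among the 9 such peaks of class II, where the IgG calls gave 0 of 4. Antibody 2 was in 6 of the 14 (42.9%, 17.7% to 71.1%), against 65.9%, and against input in 14 of 26 (53.8%, 33.4% to 73.4%), against 77.4%. Among the 75 of 500 bp or wider the shares were 33.3% (22.9% to 45.2%) for antibody 1, against 34.8%, and 44.0% (32.5% to 55.9%) for antibody 2, against 51.0%. Against input antibody 1 was in 27 of 69 (39.1%, 27.6% to 51.6%), against 55.5%. The interval lay below that whole-list share but includes the 46.2% on the rest of chromosome 6. Antibody 2 was in 37 of these 69 (53.6%, 41.2% to 65.7%), an interval that includes the 60.3% of the whole list.

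Neighbouring polymerase peaks formed longer stretches. Joined where at most 500 bp apart, a rule set after the values were seen, the 295 peaks made 178 stretches, of which 10 were 2000 bp or longer. Antibody 1 was in 5 of these 10 (50%, 18.7% to 81.3%), against 33.9% of such stretches in the whole list, and antibody 2 in 8 (80.0%, 44.4% to 97.5%), against 78.3%, so both intervals include the whole-list share. On the rest of chromosome 6 antibody 1 was in 40 of 81 (49.4%). Against input antibody 1 was in 5 of 11 (45.5%, 16.7% to 76.6%), now below the 61.7% of the whole list, which the interval includes. The longest stretch against IgG, in class I at 30576470 to 30585871 (9402 bp, 6 peaks), held a single antibody 1 peak of 467 bp at its far end, from 8779 to 9246 bp, overlapping an antibody 2 peak of 425 bp. The next, in class II at 32935443 to 32941585 (6143 bp, 6 peaks), held 1 antibody 1 peak of 581 bp near its start, from 460 to 1041 bp, and 4 antibody 2 peaks. The third, in class II at 32947562 to 32952831 (5270 bp), held 3 antibody 2 peaks of 123 bp and no antibody 1 peak. Shorter stretches could be densely occupied. At 30523228 to 30525454 in class I, 1648 of 2227 bp lay in antibody 1 peaks, and at 32820834 to 32822818 in class II, 1274 of 1985 bp.

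**Figure D5:**
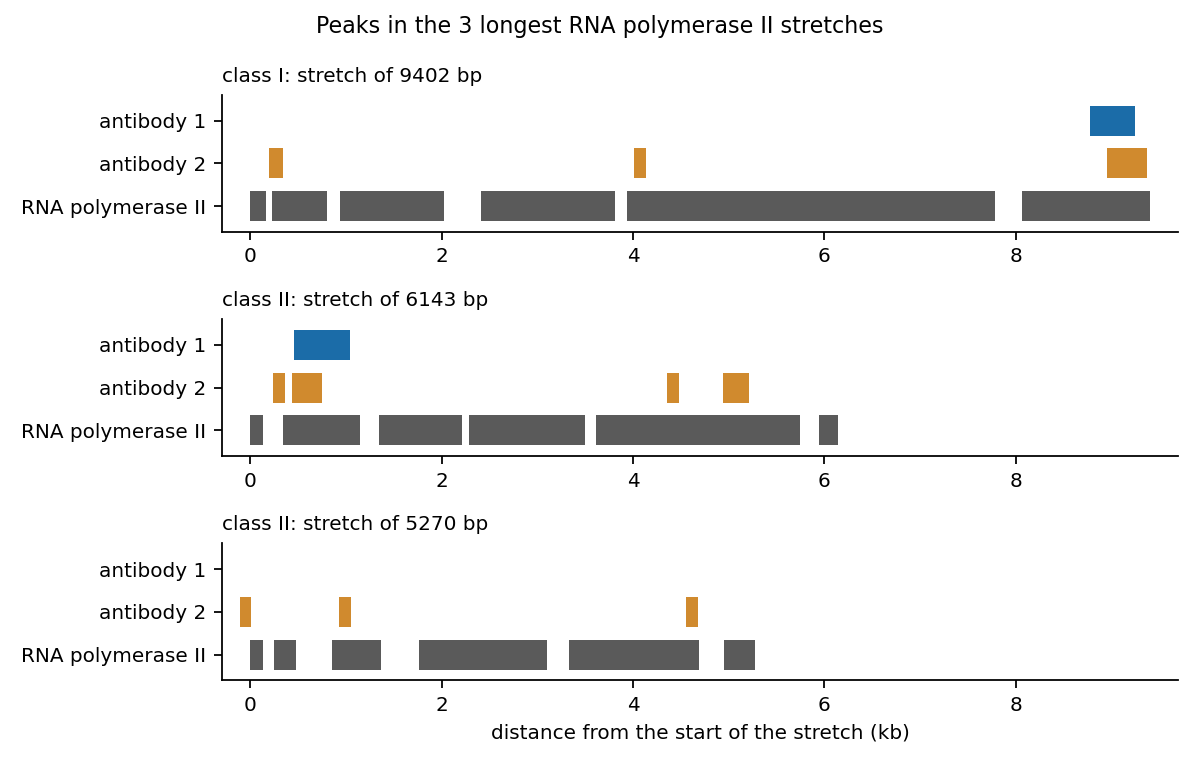
Called peaks of antibody 1, antibody 2 and RNA polymerase II (rows) in the 3 longest polymerase stretches of the MHC, by distance in kb from the start of each stretch. Antibody 1 has 1 peak towards an end of each of the upper 2 stretches, of 9402 and 6143 bp, and none in the lowest, of 5270 bp.

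The choice of control changed the antibody 1 and polymerase counts less in the MHC than over the whole lists. For antibody 1 the MHC had 76 peaks called against input and 62 against IgG, a ratio of 1.23, against 4.00 over the whole lists and 1.66 on the rest of chromosome 6. Of the 3.6-Mb windows, 470 had 10 or more antibody 1 peaks in the IgG calls, and there the median ratio was 1.74, with quartiles of 1.46 and 2.25, so the MHC lay below the lower one. For RNA polymerase II the ratio was 1.08, against 1.60 over the whole lists, 1.16 on the rest of chromosome 6 and a median window of 1.24. For antibody 2 it was 0.971, against 1.04 over the whole lists, 0.975 on the rest of the chromosome and a median window of 0.999. By class, the polymerase ratio was 1.18 in class I and 1.10 in class III, but 0.904 in class II, from 66 peaks against input and 73 against IgG.

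Peak by peak, 48 of the 76 antibody 1 peaks against input (63.2%, 51.3% to 73.9%) were found against IgG, where the whole list gave 19.5%, and 47.3% on the rest of chromosome 6. The reverse share was 48 of 62 (77.4%, 65.0% to 87.1%), against 81.3%. For RNA polymerase II 244 of 320 peaks against input (76.3%, 71.2% to 80.8%) were found against IgG, with a whole-list share of 52.4%. The rest of chromosome 6 gave 73.5%, within the MHC interval. The other way 263 of 295 (89.2%) were found, against 89.4%. For antibody 2, 722 of 778 peaks against input (92.8%, 90.8% to 94.5%) were found against IgG. That lay above the 89.1% of the whole list but below the 94.9% of the rest of chromosome 6. In reverse 723 of 801 (90.3%, 88.0% to 92.2%) were found, against 93.2% in the whole list and 92.6% on the rest of the chromosome.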

How the data were processed

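The members and lists were chosen with earlier results of these data known. Per the submitters' processing notes the authors used Bowtie 0.12.7, SAMtools, MACS2 2.0.9 and the build hg19, with no order or settings stated. Control and q-value threshold (0.1) come from the names of the deposited lists. Each list has 3 columns (chromosome, start, end) and no peak score, and starts, stored from 0, are printed from 1. Duplicate removal and fragment length are not given in the sources used here.

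The 6 lists were read with pandas 2.3.3, NumPy 2.4.6 and SciPy 1.17.1 (Python 3.11.15); figures used matplotlib 3.10.9. A peak belonged to a class by its midpoint, and an overlap needed at least 1 bp. The overlap code was tested on simulated data and against bedtools 2.31.1. Named peaks are the 3 widest per library and class, plus antibody 1 peaks with an antibody 2 peak and a polymerase peak of 500 bp or wider. The planned counts of genes with peaks need an annotation of build hg19, which was not used here, and no sequence was read. How the threshold and the control's depth affect the lists was not tested.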

Additional observations from a re-analysis of the deposited data

Results flagged for a closer look

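The number of MHC peaks called against input over the number called against IgG was above 1 for antibody 1 (1.23) and RNA polymerase II (1.08) and below 1 for antibody 2 (0.971). The libraries thus moved in opposite directions under the same change of control. With 1 library per antibody this difference was not tested. On the rest of chromosome 6 the same ratios were 1.66, 1.16 and 0.975, so these directions were not particular to the MHC. Over the whole lists they were 4.00, 1.60 and 1.04.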

How the results depend on the processing

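Of 91 values for the whole MHC under another setting, 72 lay within the interval of the reported share or median, or within a factor of 1.5 of the reported density, fold or rank. Limiting the lists to peaks of 200 bp or wider moved most of the others. It gave densities of 8.06 per Mb for antibody 1 and 23.9 for antibody 2, and overlaps of 79.3% for antibody 1 in RNA polymerase II, 16.3% for antibody 2 in antibody 1, 32.6% for antibody 2 in RNA polymerase II and 13.1% for RNA polymerase II in antibody 2. Of such peaks called against IgG, 100% of antibody 1, 98.8% of antibody 2 and 97.5% of RNA polymerase II were found against input, and in reverse 97.1%, 98.8% and 89.0%. Requiring 50% of a peak to be covered gave 9.74% for antibody 2 in RNA polymerase II, 7.46% for RNA polymerase II in antibody 1 and 10.8% for RNA polymerase II in antibody 2, lower by construction. Antibody 1 peaks found against both controls met antibody 2 at 62.5%. In the lists against input the MHC ranked 87 for antibody 1 and 32 for RNA polymerase II among windows of 3.6 Mb, against 11 for each. Apart from lower coverage and fewer peaks by construction, the cause was not tested. Counting peaks by any overlap with the MHC, moving its outer ends inwards by 100 kb, and taking the second list against input moved none of the values they were run on. Against input, an alternative chosen after the values were seen, antibody 1 was 1.17 times as dense as its whole list, against 3.83 times. Within the classes 47 of 234 values moved, 17 of them shares found against the other control, which rose with the limit of 200 bp. Small class II counts (8 antibody 1 peaks) limit what can be said of that class. A threshold by score could not be run on lists without scores. No paired analysis was possible because each antibody has 1 library.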

Other observations

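Along the 36 bins of 100 kb, RNA polymerase II counts went with antibody 1 counts with a Pearson r of 0.49 and a Spearman rho of 0.50, and with antibody 2 counts with an r of 0.57 and a rho of 0.52. Without the 2 bins farthest from the polymerase median, which start at 32900001 and 31500001, r was 0.61 and 0.49. Against input the values were r = 0.47 and 0.56. Bins of 1 library share its depth and the control's, are not independent, and carry no test here.

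Overlap with the polymerase relative to the bases it covers was lower in the MHC than over the whole lists. For antibody 1 the share of peaks was 19.8 times the share of bases in the MHC, against 92.3 times over the whole list. For antibody 2 it was 3.92 times, against 5.35 times. Against input the same ratios were 17.7 in the MHC, against 45.2, and 3.80, against 6.33. These ratios shrink as the polymerase covers more of a region, and its part in the difference was not tested.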
